A study of Mus musculus with 8 samples.

Results

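The proteasome subunit genes were taken as the protein-coding mouse genes whose symbol is Psm followed by a letter from a to g and a number, a rule that uses symbols alone and no measured value. There were 48 such genes among 21887 protein-coding genes. They comprised 8 Psma, 11 Psmb, 6 Psmc, 14 Psmd, 4 Psme, 1 Psmf and 4 Psmg genes. Chromatin immunoprecipitation followed by sequencing had been done in 129/Ola mouse embryonic stem cells differentiating on gelatin in N2B27, a serum-free medium used for neural differentiation. One ChIP library mapped the histone deacetylase HDAC1 on day 2, through a FLAG-tagged HDAC1, and 3 mapped H3ac, the acetylation of histone H3 that is typical of active promoters, on days 2, 4 and 6. Each ChIP library had 1 input library, and all 8 came from cells of that strain and medium. How the tagged HDAC1 was expressed is not given in the sources used here.

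No group had a replicate, so no difference between days or targets below has a replicate check, and no p-value was computed. The lists held 17368, 12945 and 5553 H3ac peaks on days 2, 4 and 6 and 5286 HDAC1 peaks, with median widths of 591, 792, 1898 and 311 bp. They give no read depth, so a gene without a listed peak can still be acetylated or bound, and a difference between lists cannot be told apart from a difference in depth or peak calling. Among pluripotency markers, Pou5f1 and Nanog had an H3ac gene-end peak on day 2 only, Sox2 had one on all 3 days, and Zfp42 and Esrrb had none. Among neural progenitor markers, Nes had one on days 2 and 4, Sox1 on day 4 only and Pax6 on no day. No peak in any of the 4 lists lay at an end of the mesoderm, endoderm, trophoblast or blood markers T, Sox17, Foxa2, Cdx2, Elf5, Ptprc and Cd3e.

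The proteasome degrades proteins that carry ubiquitin chains. Its 20S core is a barrel of alpha rings, which gate entry, and beta rings, which hold the proteolytic sites, and the 19S cap recognises ubiquitin, removes it and unfolds the substrate with a ring of ATPases. The 20S core with its 19S cap forms the 26S proteasome. Pluripotent cells are known for high proteasome activity, and cytokine-exposed and immune cells exchange several beta subunits for those of the immunoproteasome.

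H3ac peaks lay at the ends of proteasome genes more often than at those of protein-coding genes as a whole. A gene was counted as marked when an H3ac peak lay, by at least 1 bp, within 1 kb of either end of the annotated gene in build mm10. On day 2, 41 of the 48 genes (85.4%) were marked, against 40.6% of all protein-coding genes. On day 4 the number was again 41 (85.4%, against 38.0% of all genes), and on day 6 it was 24 (50%, against 23.3%). The 24 genes of day 6 were the same genes that carried a peak on all 3 days (50%, against 18.5% of all genes), so that no proteasome gene was marked on day 6 without being marked on both earlier days. Of all genes, 1.23% were marked on day 6 only, 1.71% on days 2 and 6 only and 1.82% on days 4 and 6 only. A further 15 proteasome genes were marked on days 2 and 4 only (31.2%, against 13.5% of all genes). Psma8 and Psmb5 were marked on day 2 only (4.17%, against 6.81%). Psme1 and Psmg4 were marked on day 4 only (4.17%, near the 4.12% of all genes). Thus 17 genes were marked on day 2 but not on day 6 (35.4%, against 20.3% of all genes), 2 had one later but not on day 2 (4.17%, against 7.17%), and 5 had none on any day (10.4%, against 52.3%).

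When the comparison was restricted to genes with a day 2 peak, 24 of 41 proteasome genes (58.5%) also had one on day 6, against 49.9% of the 8878 such genes in all, and 39 of 41 (95.1%) had one on day 4, against 79.0%. The shorter day 6 list bears on these numbers. With the 5286 highest-scoring peaks of each list, 30, 32 and 24 proteasome genes were marked on days 2, 4 and 6, against 22.3%, 22.8% and 22.4% of all genes, and 10 rather than 17 genes were marked on day 2 and not on day 6. The share of all genes for this last count is not given.

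The 31 constitutive subunits of the 26S proteasome gave 30, 29 and 22 marked genes on days 2, 4 and 6 (96.8%, 93.5% and 71.0%). The other 17 genes, made up of tissue-specific subunits, activators, the inhibitor and assembly chaperones, gave 11, 12 and 2 (64.7%, 70.6% and 11.8%). The shares of all genes were 40.6%, 38.0% and 23.3%. Of the 24 genes marked on all days, 22 were constitutive subunits, and the others were the activator gene Psme4 and the chaperone gene Psmg2. The grouping by role was made from general knowledge of the complex, but earlier results of these data were known when it was made.

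**Figure D1:**
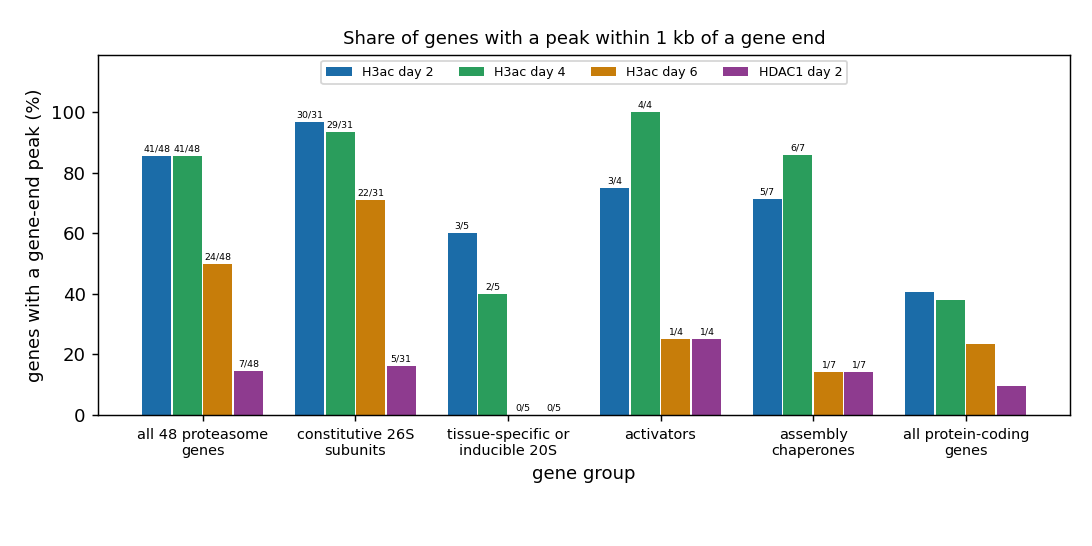
Share of genes with a peak within 1 kb of a gene end (y axis, percent) for all 48 proteasome genes, 4 of their role groups and all protein-coding genes, with 1 bar for each of the H3ac lists of days 2, 4 and 6 and the HDAC1 list of day 2. Numbers above bars give marked genes over genes in the group. The constitutive 26S subunits reach 30, 29 and 22 of 31, and the tissue-specific or inducible 20S genes 3, 2 and 0 of 5.

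Among the alpha ring genes, 6 of 7 were marked on day 2, 6 on day 4 and 5 on day 6. The shares of all genes, here and for the role groups below, were 40.6%, 38.0% and 23.3%. Psma2 had the strongest peak of the family on day 2 (score 454.04, rank 438 of 17368), with a score of 251.45 on day 4 and of 319.34 on day 6. Scores are the authors' own values on an unstated scale, starting at 50, and rank peaks within a list only. Psma2 shares its start region with Mrpl32, a mitochondrial ribosomal protein gene whose end lies within 1 kb of each of these peaks. Psma1 led the family on day 4 (322.87) after a day 2 score of 199.92, and it had no peak on day 6, where the nearest lay 9467 bp from its ends. Psma4, Psma5 and Psma7 were marked on every day, with day 2 scores of 127.00, 159.39 and 125.17.

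All 7 constitutive beta ring genes were marked on day 2, 6 on day 4 and 4 on day 6. Psmb2 had the highest score of the family on days 2 and 4, with a score of 584.32 on day 2 (rank 215), 384.01 on day 4 (rank 700 of 12945) and 232.60 on day 6 (rank 1305 of 5553). Psmb1, Psmb6 and Psmb7 were also marked on every day, and Psmb7 had the highest day 6 score of the family (260.55). The catalytic subunit genes did not share a pattern. Psmb6, which encodes the caspase-like beta 1 subunit, and Psmb7, which encodes the trypsin-like beta 2 subunit, had peaks on all days, whereas Psmb5, which encodes the chymotrypsin-like beta 5 subunit, had a day 2 peak of score 115.92 and none within 10 kb on days 4 and 6. Psmb3 and Psmb4 were marked on days 2 and 4 only. A day 6 peak of score 346.17 lay 1989 bp from an end of Psmb3, and it enters when the window is widened to 2.5 kb.

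All 6 ATPase genes (Psmc1 to Psmc6), which form the ring that unfolds substrates, had a peak on days 2 and 4, and 4 had one on day 6. Psmc5 had the highest day 2 score of any proteasome gene (773.14, rank 100), from a peak 3158 bp wide that also reached an end of Ftsj3, and scores of 306.13 on day 4 and 285.76 on day 6. Psmc6 led on the later days, with 470.69 on day 2, 415.68 on day 4 (rank 561) and 478.98 on day 6 (rank 316). Psmc3 (319.08 and 201.22) and Psmc4 (398.85 and 177.91) were marked on days 2 and 4 and not on day 6. Psmc4 thus stood at rank 597 of the day 2 list, with its nearest day 6 peak 61827 bp away.

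The 3 non-ATPase genes of the 19S base, Psmd1, Psmd2 and Psmd4, were marked on every day. Psmd1 and Psmd2 encode its large scaffold subunits and Psmd4 encodes a ubiquitin receptor. Psmd2 had the highest day 4 score of the Psmd family (396.32), with 150.25 on day 2 and 98.78 on day 6, while Psmd4 had scores of 153.69, 182.81 and 299.56. All 8 lid genes were marked on days 2 and 4 and 6 on day 6. Psmd14, which encodes the lid's deubiquitinating enzyme, had the highest day 2 score of the family (402.23), with 219.60 on day 4 and 237.77 on day 6. Psmd3 led on day 6 (333.76), after scores of 199.88 and 228.09. Psmd8 and Psmd13 were marked on days 2 and 4 only. Psmd13 had low scores of 74.60 and 102.63, from peaks that also lay at an end of Sirt3.

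Of the 5 subunits that replace constitutive ones in particular tissues, 3 were marked on day 2, 2 on day 4 and none on day 6, against 40.6%, 38.0% and 23.3% of all genes. Psmb8, Psmb9 and Psmb10 encode the catalytic subunits of the immunoproteasome, Psmb11 that of the thymus and Psma8 an alpha subunit of the testis. Psmb8 and Psmb11 had none on any day, with the nearest day 2 peaks 9982 and 7067 bp away. Psmb9 had peaks of score 65.91 on day 2 and 132.43 on day 4, each within 1 kb of an end of Tap1, the neighbouring gene of a peptide transporter. Psmb10 had a day 2 peak of score 90.45, which also reached an end of Lcat, and a day 4 peak of score 141.85 that began 632 bp downstream of the start. Psma8 had a single peak of score 60.55 on day 2 (rank 12848).

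Activators open the 20S gate in place of the 19S cap. Psme1 and Psme2, the interferon-inducible pair, differed: Psme1 was marked on day 4 only (score 79.79), and Psme2 on day 2 (257.09) and day 4 (405.76, the highest day 4 score of the Psme family) by peaks that also lay at an end of Rnf31. The day 4 peak of Psme2 ended 15 bp before the outer of its 2 annotated starts, so Rnf31 and Psme2 cannot be told apart there. Psme3, which encodes the nuclear activator, had scores of 353.67 on day 2 and 257.01 on day 4 and no day 6 peak. Psme4, which encodes the largest activator, was marked on all days, with scores of 138.14, 228.44 and 328.85. Of the assembly chaperone genes Psmg1 to Psmg4, Psmd5, Psmd9 and Psmd10, 5 were marked on day 2, 6 on day 4 and 1 on day 6. Their shares were 71.4%, 85.7% and 14.3%, against 40.6%, 38.0% and 23.3% of all genes. The chaperone gene marked on day 6 was Psmg2, whose peak was the strongest of any proteasome gene in that list (553.85, rank 212, 3003 bp wide) and reached an end of Cep76 as well. Psmg1 and Psmg3 had peaks on days 2 and 4, with day 2 scores of 207.01 and 162.71, and Psmg4 had one of score 82.27 on day 4 only. Psmd10, an X-linked gene, had none on any day, and its nearest H3ac peak, on day 2, lay 145679 bp away.

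**Figure D2:**
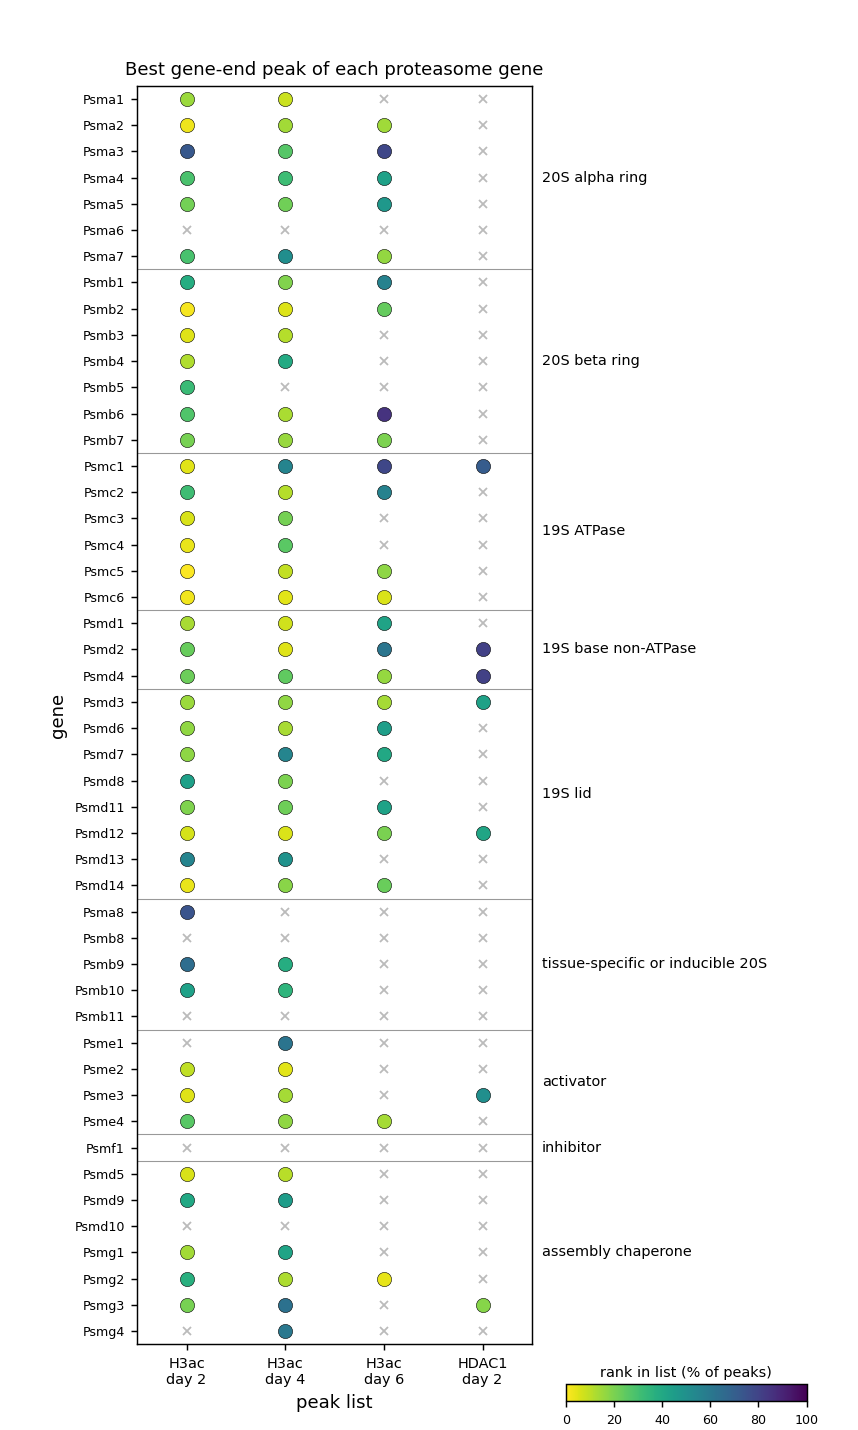
Each row is a proteasome gene, grouped by role, and each column a peak list. A filled circle marks a gene-end peak, coloured by the rank of the gene's best peak as a percent of all peaks in that list (low is strong), and a grey cross marks none. Day 6 circles are confined to 24 genes, of which 22 are constitutive 26S subunits.

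Listed starts lay well inside the annotated gene in Psma3, Psma6 and Psmf1, so that their gene ends missed the peaks at those starts. RefSeq start sites (assembly GRCm38.p6, which has mm10 coordinates) were found for 40 of the 48 genes, with 43 starts in all. Psma6, on chromosome 12 from 55384222 to 55418459, has a second start at 55398825, inside the gene. On day 2 an H3ac peak of score 194.49 covered 55398862 to 55399682, on day 4 one of 236.30 covered 55398780 to 55400281, and on day 6 one of 63.39 covered 55397797 to 55400525. Its outer start had no peak in any list. Psmf1, which encodes the proteasome inhibitor PI31, on chromosome 2, starts at 151741310 on the minus strand. It had a peak there on day 2 (207.69) and day 4 (102.10) and none on day 6. Psma3 counted as marked through peaks at its outer end, which scored 61.19, 175.58 and 73.03 in the lists of days 2, 4 and 6. Its listed start, at 70974623 on chromosome 12, had peaks of 268.93 on day 2, 180.61 on day 4 and 504.06 on day 6, all outside the gene-end window.

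When a peak within 1 kb of a gene end or of a listed start was counted, a choice made after the peaks had been seen, 31 of 31 constitutive subunits were marked on day 2, 30 on day 4 (all but Psmb5) and 23 on day 6. Over all 48 genes the numbers were 43, 43 and 25, against 43.2%, 40.8% and 24.7% of all protein-coding genes. Psmb8, Psmb11 and Psmd10 were then the only proteasome genes with no H3ac peak on any day.

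**Figure D3:**
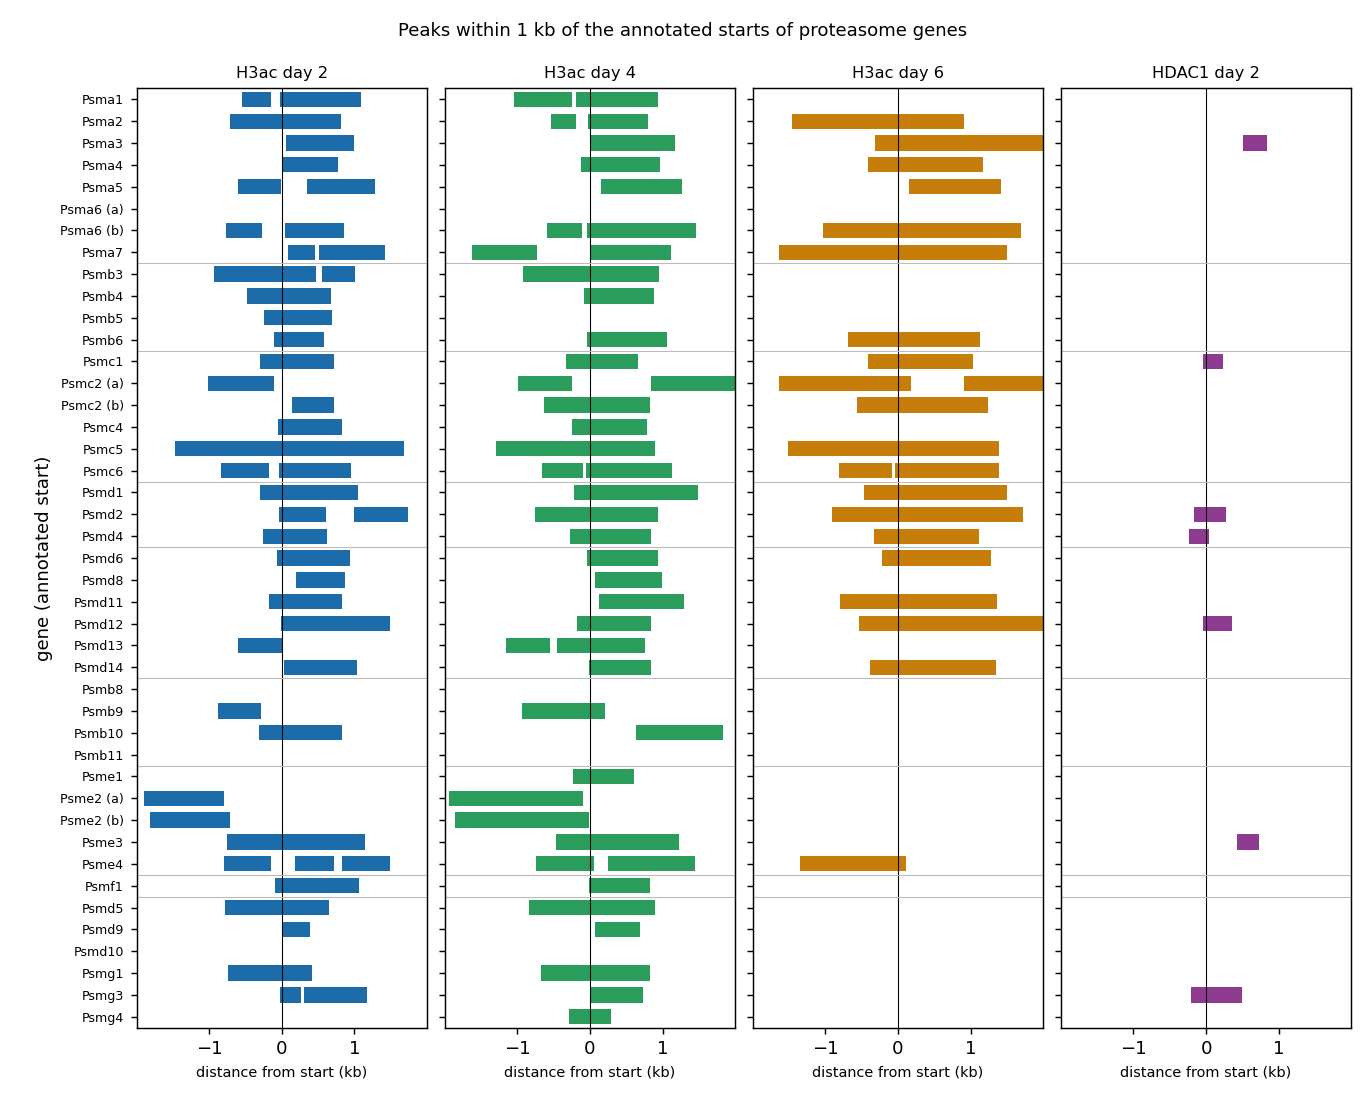
Peaks that reach within 1 kb of each annotated start of the proteasome genes, drawn as bars by distance from the start in kb, with downstream to the right, in the 4 lists. Rows are genes with a listed start, and (a) and (b) are the lower-coordinate and higher-coordinate starts of a gene with more than 1. Most H3ac bars of days 2 and 4 extend further downstream than upstream, and HDAC1 bars are short.

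On days 2 and 4 the H3ac peaks of proteasome genes lay mainly just downstream of the start. Coverage among marked proteasome genes with a start was highest 350 bp downstream on day 2, where a peak covered 87.9% of 33 genes, against 71.3% at the highest point, 400 bp downstream, for all 7200 marked genes. It was highest 200 and 250 bp downstream on day 4 (88.2% of 34 genes, against 76.8% at 500 bp downstream for all). On day 6 the highest value, 94.4% of 18 genes, held from 200 to 100 bp upstream and from the start to 100 bp downstream. For all marked genes it was 89.1% at 500 bp downstream. More bases were covered downstream than upstream of the start in 26 of the 33 proteasome genes on day 2 (78.8%, against 68.3%), in 28 of 34 on day 4 (82.4%, against 72.4%) and in 13 of 18 on day 6 (72.2%, against 73.3%). A peak covered the start itself in 22 of 33 genes on day 2 (66.7%, against 47.0%), in 24 of 34 on day 4 (70.6%, against 49.0%) and in 17 of 18 on day 6 (94.4%, against 80.8% of all marked genes). Marked genes here are those with a peak at either gene end, and coverage was taken at the first listed start of each gene. A gene marked only at its other end or at another start can thus count as uncovered. On day 2, separate peaks flanked an uncovered start in Psma5, in Psme4 and at the inner start of Psma6. The 3 day 4 peaks of Psma7 lay under a single day 6 peak of 3136 bp.

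**Figure D4:**
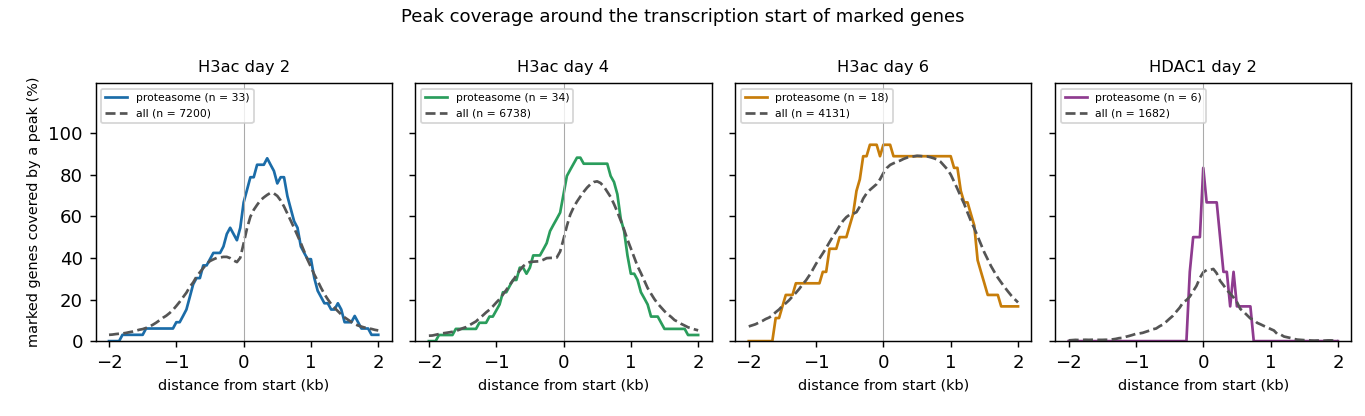
Percent of marked genes with a start (y axis) that a peak covers at each distance from the start in kb (x axis), in steps of 50 bp, for proteasome genes (solid) and all protein-coding genes (dashed), in each list. On day 2 proteasome genes reach 87.9% and all genes 71.3%, and HDAC1 coverage of proteasome genes rests on 6 genes.

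The best peak of a marked proteasome gene had a median width of 940, 1121 and 1812 bp in the H3ac lists of days 2, 4 and 6, against 807, 970 and 2116 bp for all marked genes. The best peak had a median score of 170.81, 211.59 and 192.54, against 133.89, 148.69 and 137.90, and 27 of 41, 29 of 41 and 17 of 24 genes lay above the median of all marked genes. In 39 of 41 genes on day 2, 40 of 41 on day 4 and all 24 on day 6, peaks lay at a single end (close to the 92.4%, 93.3% and 93.9% of all marked genes). By gene-end peaks, the median day 2 score was 380.29 over the 6 Psmc genes, 257.09 over 3 Psme, 184.79 over 13 Psmd and 162.71 over 3 Psmg genes. It was 127.00 over 7 Psma and 131.60 over 9 Psmb genes, both slightly below the 133.89 of all marked genes. Across the 39 genes marked on days 2 and 4, Spearman's rho between the scores was 0.40, against 0.56 across 7013 genes. Across the 24 genes marked on all days it was 0.32 between days 2 and 6 (against 0.22 over all genes marked on both) and 0.19 between days 4 and 6 (against 0.25). These values describe genes of the same libraries and are not tests. All marked genes were also divided into 3 classes of about equal size by day 2 score. Of the proteasome genes in the highest class, from a score of 189.06, 9 of 18 had a day 6 peak (50%, against 68.2% of all genes in that class). In the middle class, from 95.98, 14 of 17 had one (82.4%, against 49.9%), and in the lowest 1 of 6 (16.7%, against 31.6%). That 1 gene was Psma3, classed by the day 2 peak at its outer end (61.19). The day 2 peak at its listed start, outside the gene-end window, scored 268.93, within the range of the highest class. The highest class includes Psmc3, Psmc4, Psmb3, Psmb4, Psmd5 and Psme3, none of which was marked on day 6.

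HDAC1 had a gene-end peak at 7 proteasome genes (14.6%, against 9.40% of all protein-coding genes). They were Psmc1, Psmd2, Psmd3, Psmd4 and Psmd12 of the 19S cap, the activator gene Psme3 and the chaperone gene Psmg3. None of the 19 Psma and Psmb genes had one. H3ac marked all 7 on day 2 as well (14.6% of the 48 genes, against 7.59% of all genes with both). Of the 2057 genes with an HDAC1 peak, 80.7% had day 2 H3ac. Among genes with day 2 H3ac the proteasome genes were near the background, with HDAC1 at 7 of 41 (17.1%), against 18.7% of all such genes.

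The HDAC1 peaks of these genes scored like those of other bound genes. Psmg3 had the strongest, on chromosome 5 from 139826398 to 139827095 (score 99.38, rank 957 of 5286), and the others scored 53.62 to 70.79. The median over the 7 genes was 65.16, against 66.38 over the 2057 bound genes, and 3 of the 7 lay above it. Psmd12 scored 70.79, Psmd3 69.32, Psme3 65.16, Psmc1 56.34, Psmd4 53.68 and Psmd2 53.62. With the higher-scoring 50% of the list 3 of the 7 stayed, Psmg3, Psmd12 and Psmd3 (6.25% of the 48 genes, against 4.92% of all genes). Each of the 7 peaks overlapped a day 2 H3ac peak, by 165 bp in Psmd3 to 371 bp in Psmd12. In Psmc1, Psmd4 and Psme3 the overlap of 265, 276 and 314 bp was the whole HDAC1 peak. Of all 1818 HDAC1 peaks at gene ends, 63.3% overlapped one. A peak covered the start in 5 of the 6 genes with a listed start (83.3%, against 33.1% of 1682 bound genes). Psme3 was the exception, with HDAC1 421 to 734 bp downstream. Bound genes here can include those with HDAC1 at the other gene end alone. On day 6, 5 of the 7 genes were marked by H3ac (71.4%, against 45.4% of all genes with HDAC1), and Psme3 and Psmg3 were not. All 7 also had day 2 H3ac, against 80.7% of all genes with HDAC1, so these day 6 shares compare unlike sets. Psma3 had an HDAC1 peak (66.07) 513 to 835 bp downstream of its listed start, outside the gene-end window, and Psmc4 had one of score 54.07 inside the gene.

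The promoter sequences of the 6 HDAC1-bound genes with a RefSeq start are shown because all 6 held the 7-letter ETS motif CCGGAAG, on either strand, between 250 bases before and 50 bases after the start. No sequence was used for Psmd3, nor for Psma8, Psmb1, Psmb2, Psmb7, Psmc3, Psmd7 and Psmg2. Each line gives the 150 bases before the start, from 5′ to 3′ on the gene's strand (RefSeq, GRCm38.p6), and capitals mark every searched motif that lies whole within the line. The leftmost base of the motif stood 28 bases before the start in Psmc1, 26 in Psmd2, 125 in Psmd4, 17 in Psmd12 and 107 in Psme3. In Psmg3 it began at base 5 of the transcript, past the end of the line shown, and Psme3 held another at base 3.
Psmc1, chr12:100110052-100110201, plus strand: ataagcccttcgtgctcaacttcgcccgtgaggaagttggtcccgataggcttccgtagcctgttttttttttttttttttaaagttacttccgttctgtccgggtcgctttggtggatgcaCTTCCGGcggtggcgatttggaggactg
Psmd2, chr16:20651502-20651651, plus strand: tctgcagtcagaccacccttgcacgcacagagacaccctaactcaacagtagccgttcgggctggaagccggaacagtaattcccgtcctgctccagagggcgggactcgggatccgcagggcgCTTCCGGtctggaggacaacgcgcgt
Psmd4, chr3:95042615-95042764, minus strand: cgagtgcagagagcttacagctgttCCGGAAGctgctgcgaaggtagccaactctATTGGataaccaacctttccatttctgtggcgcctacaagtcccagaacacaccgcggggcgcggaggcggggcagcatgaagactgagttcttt
Psmd12, chr11:107479378-107479527, plus strand: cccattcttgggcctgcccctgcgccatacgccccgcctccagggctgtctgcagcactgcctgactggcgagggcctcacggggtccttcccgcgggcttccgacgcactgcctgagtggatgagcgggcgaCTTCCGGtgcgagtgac
Psme3, chr11:101316063-101316212, plus strand: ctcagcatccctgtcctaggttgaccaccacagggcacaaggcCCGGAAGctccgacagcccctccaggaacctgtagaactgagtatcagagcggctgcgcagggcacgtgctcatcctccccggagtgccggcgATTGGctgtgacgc
Psmg3, chr5:139826895-139827044, minus strand: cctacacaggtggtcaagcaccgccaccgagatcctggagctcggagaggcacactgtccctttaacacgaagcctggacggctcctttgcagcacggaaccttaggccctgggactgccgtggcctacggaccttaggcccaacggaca

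Over all 43 proteasome starts, 15 (34.9%) held CCGGAAG, against 11.6% of the 21263 starts of all protein-coding genes and 20.1% of those of day 2 H3ac genes. Among proteasome starts with day 2 H3ac and no HDAC1 it was present in 8 of 29 (27.6%, against 19.2% of all such starts), and of all starts with HDAC1 and day 2 H3ac 24.0% held it. The split by HDAC1 was made after the motif positions had been seen, and it rests on 6 genes. Psma3 held no such motif, and its HDAC1 peak lay 513 to 835 bp downstream of its listed start, outside the window searched for motifs. The HDAC1 peak of Psme3, which is among the 6, lay outside that window as well, 421 to 734 bp downstream. The motifs of Psme3 thus did not lie under its HDAC1 peak. ETS is a family of transcription factors that bind this core sequence. A match is a description of letters and not a bound site.

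The other motifs were present at shares closer to those of day 2 H3ac genes. The core TGACNNNGC of the antioxidant response element, which the factors encoded by Nfe2l1 and Nfe2l2 are known to bind at proteasome genes, was present at 6 of 43 starts (14%, against 13% of all starts), those of Psmb5, Psmb6, Psmc6, Psmd9, Psmd12 and Psme4. The NRF1 motif GCGCANGCG was present at 7 (16.3%, against 8.58%, and 15.1% at day 2 genes), the CCAAT box at 14 (32.6%, against 38.2%) and the YY1 motif AAGATGGCG at 2 (4.65%, against 1.83%), those of Psmb6 and Psmc5. The NRF1 of this motif is the nuclear respiratory factor, a different protein from the one that Nfe2l1 encodes. All motifs were searched on both strands. Motifs may overlap one another. The next lines show Psmc5, the strongest day 2 gene, with its NRF1 motif, Psmb5, with an antioxidant response element core 47 bases before a start that was marked on day 2 alone, and Psma6, whose inner start had H3ac peaks in all 3 lists while its outer start had none.
Psmc5, chr11:106256035-106256184, plus strand: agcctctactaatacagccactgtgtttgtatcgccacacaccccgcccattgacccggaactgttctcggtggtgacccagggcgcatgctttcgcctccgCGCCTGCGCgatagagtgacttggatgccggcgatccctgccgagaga
Psmb5, chr14:54617996-54618145, minus strand: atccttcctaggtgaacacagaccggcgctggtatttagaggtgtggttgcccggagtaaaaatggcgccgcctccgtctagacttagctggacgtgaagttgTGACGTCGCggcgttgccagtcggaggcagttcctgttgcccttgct
Psma6, inner start, chr12:55398675-55398824, plus strand: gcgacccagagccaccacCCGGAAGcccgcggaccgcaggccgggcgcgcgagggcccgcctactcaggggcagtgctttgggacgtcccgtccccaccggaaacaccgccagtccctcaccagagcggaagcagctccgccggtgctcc
Psma6, outer start, chr12:55384072-55384221, plus strand: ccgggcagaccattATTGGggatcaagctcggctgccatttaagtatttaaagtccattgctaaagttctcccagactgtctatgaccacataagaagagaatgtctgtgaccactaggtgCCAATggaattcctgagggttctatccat

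The starts of Psma6 differed in composition as well as in H3ac. In the window from 250 bases before to 50 after, the inner start held 22 CpG dinucleotides at 65.0% G and C, and the outer start held 3 at 46.7%. The median proteasome start held 19 CpG, against 13 over all starts, 22 at day 2 H3ac genes and 5 at genes with no H3ac peak on any day. The 3 genes without H3ac at any end or start held 11 (Psmb8), 4 (Psmb11) and 11 (Psmd10). Psmb10 held 3 and was marked on days 2 and 4. The upstream sequences of the 3 genes without H3ac are given for comparison with those of the marked genes.
Psmb8, chr17:34198045-34198194, plus strand: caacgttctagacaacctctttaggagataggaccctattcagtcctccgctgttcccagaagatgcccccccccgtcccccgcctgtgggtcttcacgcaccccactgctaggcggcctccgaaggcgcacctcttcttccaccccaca
Psmb11, chr14:54625160-54625309, plus strand: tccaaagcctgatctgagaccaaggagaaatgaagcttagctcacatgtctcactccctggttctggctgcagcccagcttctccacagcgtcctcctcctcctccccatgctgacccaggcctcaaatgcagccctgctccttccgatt
Psmd10, chrX:140956712-140956861, minus strand: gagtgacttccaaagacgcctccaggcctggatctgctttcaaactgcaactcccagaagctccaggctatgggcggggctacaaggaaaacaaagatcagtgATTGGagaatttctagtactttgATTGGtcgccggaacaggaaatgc

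Genes that work with the proteasome, taken from a list of 33 of which 32 are in the gene table, gave 27, 25 and 21 marked genes on days 2, 4 and 6 and 10 with HDAC1 (84.4%, 78.1%, 65.6% and 31.2%, against 40.6%, 38.0%, 23.3% and 9.40% of all genes). Of 9 further subunits and bound factors, 8, 8 and 7 were marked, among them the ubiquitin receptor gene Adrm1 (day 2 score 62.48) and the maturation factor gene Pomp (69.00). Ecpas, which encodes a proteasome adaptor, had no peak in any list. HDAC1 lay at Pomp (70.09), Uchl5 (56.98) and Ube3c (87.38). Of 10 genes that control proteasome gene transcription, 7, 7 and 3 were marked. Nfe2l1, which encodes the factor that raises proteasome gene transcription when the complex is inhibited, had scores of 521.71 on day 2 and 152.28 on day 4 and no day 6 peak, and Nfe2l2 had 301.43 and 117.22, with HDAC1 at 64.75 and likewise no day 6 peak. Nfe2l3 and Ngly1 had none on any day, and Maff, without H3ac on day 2, had HDAC1 (72.02), as did Mafg (66.03).

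Of 8 genes of ubiquitin receptors that shuttle substrates and of the unfoldase Vcp, 7, 6 and 8 were marked on days 2, 4 and 6. The shares of all genes were 40.6%, 38.0% and 23.3%. Ubqln2 was marked on day 6 only (83.52), and HDAC1 lay at Vcp (107.66). Among genes for ubiquitin, HDAC1 lay at Ubb (61.52) and Rps27a (51.76), both marked by H3ac on all days.

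Other large complexes with housekeeping functions are set beside the proteasome genes here. With 24 of 48 proteasome genes marked on day 6 (50%), the share was the lowest among these groups. Cytosolic ribosomal protein genes, paralogues included, gave 86.0% (74 of 86). The chaperonin TRiC gave 8 of 8 and the translation factor eIF3 11 of 12. Mitochondrial ribosomal protein genes gave 57.7% (45 of 78) and the COP9 signalosome 66.7% (6 of 9). Subunits of the COP9 signalosome, like several of eIF3, are related to those of the 19S lid. The constitutive 26S subunits alone gave 71.0% on day 6. On day 2 the shares were 85.4% for the proteasome genes, 95.3% and 89.7% for cytosolic and mitochondrial ribosomal protein genes and 66.7% for the COP9 signalosome. All TRiC and eIF3 genes were marked on day 2 (8 of 8 and 12 of 12). These differences between gene groups were not tested. HDAC1 lay at 14.6% of the proteasome genes, at 18.6% of the cytosolic and 21.8% of the mitochondrial ribosomal protein genes. It lay at 3 of 8 TRiC genes (37.5%), 4 of 12 eIF3 genes (33.3%) and 2 of 9 COP9 signalosome genes (22.2%). Among these groups the proteasome share was the lowest, a difference that was not tested.

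Neighbouring genes shared some of the peaks. On days 2, 4 and 6, 12, 12 and 7 of the marked proteasome genes had a peak that also lay within 1 kb of another protein-coding gene's end (29.3%, 29.3% and 29.2%, against 33.1%, 33.7% and 34.7% of all marked genes), and none of the 7 genes with HDAC1 had such an HDAC1 peak, against 35.3% of all bound genes. Restricting the count to ends more than 2 kb from those of any other gene left 41 proteasome genes, of which 28, 26 and 17 were marked (68.3%, 63.4% and 41.5%, against 29.2%, 27.2% and 16.6% of all genes with such an end).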

How the data were processed

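The deposited peak lists, 1 for each ChIP library, have 5 columns and no header. Reads were aligned with Bowtie 0.12.8 to mm10, per the submitters' processing notes. Peak names begin with MACS, per the files, but the sources used here do not give its version, its cut-off or whether the 4 inputs entered the calling. The peak score is the authors' deposited value on an unstated scale, and peaks were ranked by it or filtered on it in their own list only. Read depth is unknown.

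Peak starts were made 1-based. Protein-coding genes of the numbered and sex chromosomes, their ends and 300-base promoters came from RefSeq tables of GRCm38.p6. Peaks were assigned by overlap in Python 3.11.15 with pandas 2.3.3, and the assignment was tested on simulated data. Members, lists, motifs and role groups were chosen with earlier results of these data known. By rule, the text describes members without a day 2 peak, with a later peak only, with HDAC1, with the best score of a family in a list, or with a peak 1 to 2.5 kb away. Other members named were chosen after their values were seen. Partner genes are named where they had HDAC1 or no day 2 H3ac, and Adrm1 and Nfe2l1 were added after their values were seen. A marker gene and a partner gene are not reported here. No test was run, since each group has 1 library. Alternatives were windows of 0.5 and 2.5 kb, the higher-scoring 50% of peaks, lists of equal length, isolated gene ends, starts alone, peak midpoints and, added after the data were seen, peaks anywhere in a gene.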

Additional observations from a re-analysis of the deposited data

How the results depend on the processing

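Of the recomputed counts over all proteasome genes, 51 stayed within 1.5 times the value reported and 5 did not. With the higher-scoring 50% of each list, HDAC1 peaks lay at 3 genes rather than 7, and the same 3 had day 2 H3ac. The HDAC1 share was then 6.25%, against 4.92% of all genes, where it had been 14.6%, against 9.40%. With equal numbers of top-scoring peaks, 10 genes had day 2 H3ac and none on day 6, rather than 17. With isolated gene ends alone, which only 41 proteasome genes have, 26 were marked on day 4, rather than 41 of 48. Of those with such an end, 11 had day 2 H3ac and none on day 6. These settings use fewer peaks or fewer genes by construction, and the shares of all genes change with them. Across all settings the counts ran from 28 to 43 on day 2, from 26 to 43 on day 4 and from 17 to 25 on day 6. The share of all genes is not given beside these ranges or beside the counts of 10 and 11. For the families Psma to Psme, 42 recomputed counts moved by more than 1.5 times and 238 did not. No library could be left out. No paired analysis was possible because each group has 1 library. With depth unknown, absence of a peak is not absence of the mark.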
